A study of Mus musculus with 20 samples.

Results

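The genes described here encode the nuclear subunits of respiratory complex I and the factors that assemble it, in the livers of 20 male C57BL/6J mice. They were chosen by name: every gene of the array annotation whose symbol begins with Ndufa, Ndufb, Ndufc, Ndufs or Ndufv. The annotation held 52 such genes, and 44 of the 18193 genes that a probe set names alone were among them. These 44 were 34 subunits, 8 assembly factors named Ndufaf, and Ndufa4 and Ndufa4l2, which carry the name but belong to complex IV and its relatives. The other 8 (Ndufs6, Ndufs6b, Ndufa11, Ndufa11b, Ndufb4b, Ndufb4c, Ndufs5-ps and Ndufab1-ps) shared every probe set with another gene.

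Groups of 5 mice, aged 7 weeks at the start, were fed normal chow, CRF-1 (NC), or a diet in which fat gave 60% of calories, with 1.25% cholesterol and 0.5% cholate (CL). The CL diet was given alone, with 0.02% of astaxanthin in it (CL + AX) or with vitamin E at the same 0.02% (CL + VE). The diets lasted 12 weeks, the livers were taken after 2 h of fasting, and 1 array was run per mouse. The CL diet is a dietary model of steatohepatitis, and no genetic change was made. Astaxanthin is a carotenoid and vitamin E a lipid-soluble vitamin, and both act as antioxidants. The CL + AX and CL + VE groups ask whether genes that differed between CL and NC also differed with an antioxidant added.

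Complex I oxidizes NADH in the mitochondrial matrix, passes the electrons through a flavin and a row of iron-sulfur clusters to ubiquinone, and pumps protons across the inner membrane. It is L-shaped. The NADH-oxidizing and ubiquinone-reducing modules form the arm in the matrix, and the proximal and distal parts of the membrane arm hold the proton channels. A few core subunits carry the redox centres or the channels, some of them encoded by mitochondrial DNA, and the many accessory subunits stabilize the whole. The Ndufaf factors help to build it and are not part of the finished enzyme. Liver holds many mitochondria, and complex I is where much of the NADH from fat oxidation enters the respiratory chain.

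Signals are given as log2 of the array signal after quantile normalization, which gives every array the same distribution, so a difference of 1 is a doubling. Fold changes are differences between group means on this scale, with their standard error (SE), from limma over 45037 probe sets, and an adjusted p under 0.05 after the Benjamini-Hochberg procedure is the threshold for a call. The deposited signals carry no scaling between arrays, and the choice of scaling moved the counts below more than any other choice did. In bulk liver, fewer cells of a type and less RNA per cell cannot be told apart. Several measures that differed between chow and the CL diets are given here once. The log2 ratio of the 3′ to the 5′ control probe sets of Gapdh was 0.38 to 0.78 in the NC livers, and from -0.26 to 0.11 in the livers on the CL diets. The Actb ratio was 1.54 to 1.95 in NC, 1.01 to 1.25 in CL, 1.07 to 1.23 in CL + AX and 1.32 to 1.51 in CL + VE. The ratio of the spiked Dap control was 2.97 to 3.39 in the NC livers and 0.99 to 2.26 on the CL diets, where CL + VE 5 held the 2.26 and the other 14 livers lay at or below 1.45. The summed signal of 22 macrophage markers was 2719 to 8105 in the NC livers and 10405 to 31191 on the CL diets, with 20 of the 22 genes higher in the CL than in the NC group. Of 20 stellate cell and fibroblast markers 16 were higher in CL, of 12 endothelial markers 7, and of 15 lymphocyte markers 8. The sum of 18 hepatocyte markers was 165410 to 172077 in the NC livers and 168607 to 177800 on the CL diets. Of these 18 markers 2 were lower and 4 were higher in CL than in NC, with log2 fold changes from -0.59 to 0.31. No marker of any list was at 0. The part of these differences in the results below was not tested.

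In the CL group the signal of 14 of the 34 subunits was lower than in the NC group, and that of 2 was higher (limma, adjusted p under 0.05). The control ratios and the median signal of the arrays as deposited, given above, separated these groups too, and their part was not tested. Over all genes 11.3% were lower and 12.0% were higher in the CL than in the NC group. The median log2 fold change of the subunits was -0.16, beside -0.04 over all genes, and 29 of 34 subunits lay below 0. Among the 1401 genes with a mean log2 signal of 10 or above, which 30 of the subunits reached, 19.6% were lower and 21.1% were higher. In 13 subunits every CL liver was below every NC liver, which held for 7.85% of all genes. Of the 6 core subunits measured 4 fell, and of the 28 accessory subunits 10 fell and 2 rose.

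The 14 subunits came from every part of the enzyme, but only 1 of them from the proximal membrane arm. In the NADH-oxidizing module 5 of 9 measured subunits fell, in the ubiquinone-reducing module 3 of 5, in the proximal membrane arm 1 of 8 and in the distal membrane arm 5 of 12. The median log2 fold change of the parts was -0.26, -0.21, -0.04 and -0.22 in the same order. Beside these counts, 11.3% of all genes and 19.6% of the bright genes were lower. The share in the proximal membrane arm is near these, so its count is no result about that part. It also held the 2 subunits that rose. No difference between the parts was tested.

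**Figure D1:**
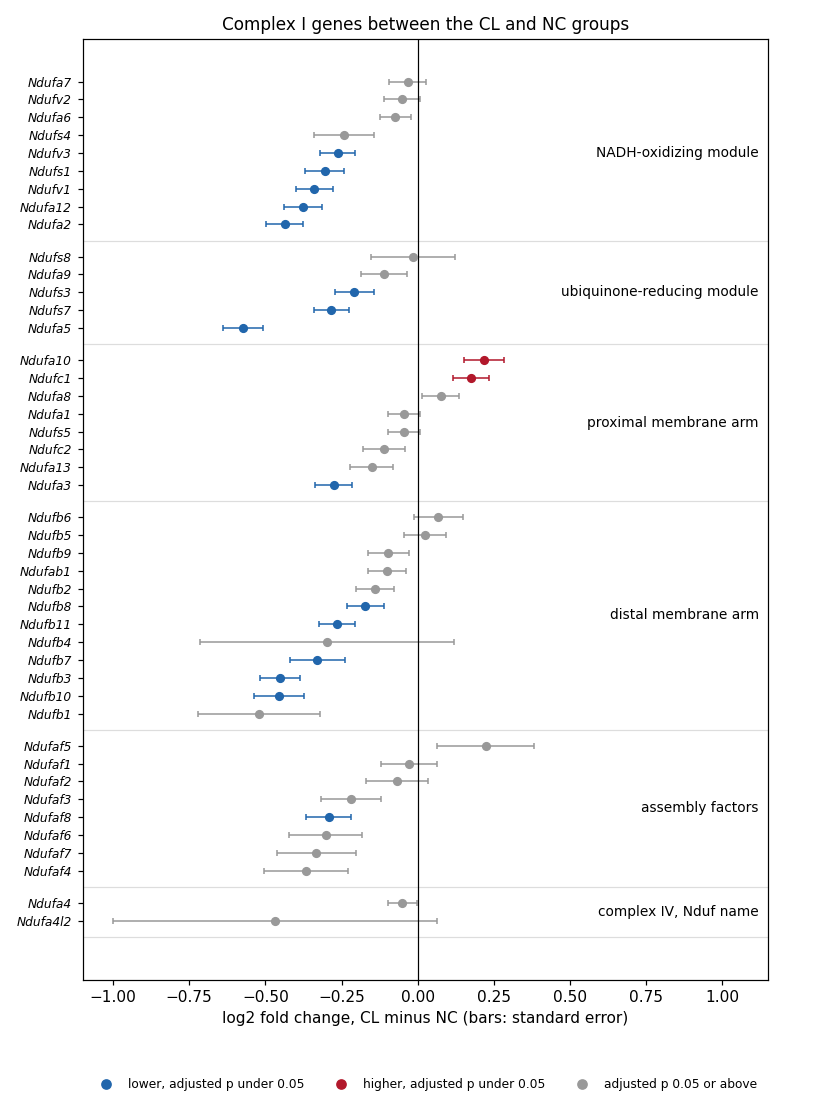
Log2 fold change between the CL and NC groups (horizontal axis) of the 44 complex I and related genes, ordered within each part of the enzyme, as a point with its standard error from limma over 5 mice per group. Blue points fell, red points rose and grey points did not pass an adjusted p of 0.05; the 14 subunits that fell lie between -0.57 and -0.17, and the red points, Ndufa10 and Ndufc1, lie at 0.22 and 0.17 and fall below 0 when each array is only centred on its median.

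In the ubiquinone-reducing module, Ndufa5, an accessory subunit at the side of the matrix arm, had the largest fall of all subunits. Its log2 signal was 11.04, 11.14, 11.15, 11.17 and 11.16 in the NC livers. In the CL livers it was 10.51, 10.48, 10.61, 10.60 and 10.58, so that every CL liver lay below every NC liver. The fold change was -0.57 (SE 0.07, n = 5 and 5, limma adjusted p = 3.44e-06), a 1.49-fold lower level. A further probe set of the gene gave only -0.11 (limma adjusted p = 0.32). Ndufs7, which holds the last iron-sulfur cluster before ubiquinone, was 11.13 ± 0.07 (SD, n = 5) in NC and 10.85 ± 0.10 in CL, a change of -0.28 (limma adjusted p = 0.00129). Its other probe set, of similar brightness, gave -0.61. Ndufs3, a core subunit on which assembly of the matrix arm starts, fell by 0.21 (limma adjusted p = 0.027), and passed in 15 of 20 fits that left out 1 array, the exceptions being NC 2, NC 4, CL 2, CL 4 and CL 5.

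Ndufs8, which holds a pair of iron-sulfur clusters, shows how much the choice of probe set matters. The brightest of its 6 probe sets differed by -0.01 (SE 0.14, limma adjusted p = 0.964), with CL livers between 11.09 and 11.65 and NC livers between 11.31 and 11.70. The next brightest pair gave -0.40 and -0.42, each past the adjusted p. Ndufs8 was therefore not among the 14 subunits counted as lower, although the fold change of all 6 probe sets was below 0. Ndufa9, which sits near the ubiquinone site, differed by -0.11 (limma adjusted p = 0.38).

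In the NADH-oxidizing module, Ndufv1, the core subunit that binds NADH and the flavin, read 11.54, 11.44, 11.51, 11.39 and 11.50 in the NC livers. The CL livers read 11.20, 11.04, 11.17, 11.10 and 11.17. The groups did not overlap, and the fold change was -0.34 (SE 0.06, limma adjusted p = 0.000353). Ndufs1, the largest iron-sulfur subunit, was 10.20, 10.23, 10.19, 10.26 and 10.03 in NC and 9.87, 9.73, 9.99, 9.85 and 9.96 in CL. It fell by 0.31 (SE 0.06, limma adjusted p = 0.00172), again without overlap, but in the signals as deposited it was 0.01 higher in CL, where the median gene was 0.39 higher. The third core subunit of this module, Ndufv2, differed by -0.05 at its brightest probe set (limma adjusted p = 0.627) and by -0.25 at the next (limma adjusted p = 0.003).

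Among the accessory subunits of the same module, Ndufa2, a small thioredoxin-like protein, was 11.24, 11.43, 11.39, 11.25 and 11.25 in NC. It was 10.80, 10.92, 10.86, 10.92 and 10.88 in CL, lower in every liver, for a fold change of -0.44 (SE 0.06, limma adjusted p = 2.40e-05). Ndufa12, which is added late and takes the place of an assembly factor, fell by 0.38 (limma adjusted p = 0.00016), and its 3 bright probe sets gave -0.38, -0.37 and -0.38. Ndufv3 fell by 0.26 (limma adjusted p = 0.00243). Ndufs4, an accessory subunit whose loss in mice causes a fatal brain disease, differed by -0.24 at its brightest probe set (limma adjusted p = 0.0966) and by -0.50, 0.28 and 0.79 at its dimmer ones. Ndufa6 and Ndufa7 differed by -0.07 and -0.03. The dimmest probe set of Ndufa7 gave -0.40 (limma adjusted p = 0.00025), and its others lay between -0.16 and -0.03 and did not pass.

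In the distal membrane arm, Ndufb3 was 10.79, 10.75, 10.78, 10.72 and 10.65 in NC and 10.42, 10.11, 10.30, 10.33 and 10.27 in CL. It fell by 0.45 (SE 0.07, limma adjusted p = 4.85e-05) with no overlap. Ndufb10, which needs disulfide bonds to be imported into the intermembrane space, was 10.99, 11.02, 10.90, 10.85 and 10.84 in NC. In CL it was 10.46, 10.22, 10.62, 10.46 and 10.57, a fall of 0.45 on the log2 scale (SE 0.08, limma adjusted p = 0.000364). Ndufb7, Ndufb11 and Ndufb8 fell by 0.33, 0.26 and 0.17, and the last of these, which passed narrowly (limma adjusted p = 0.0492), did so in 5 of the 20 fits that left out 1 array. Ndufb9 was 0.10 lower at its brightest probe set (limma adjusted p = 0.375) and 0.33 lower at the next (limma adjusted p = 0.0021). Ndufb5 and Ndufb6 were at 0.02 and 0.07. Ndufab1, the mitochondrial acyl carrier protein, differed by -0.10 (limma adjusted p = 0.315), and a probe set it shares with Ndufab1-ps by -0.34 (limma adjusted p = 0.0027). Ndufb1 differed by -0.52 (SE 0.20, limma adjusted p = 0.078) and Ndufb4 by -0.30 (SE 0.42), from probe sets with mean log2 signals of 5.70 and 3.09, where the median of all probe sets was 4.21.

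The 2 subunits counted as higher belong to the proximal membrane arm. Ndufa10, a nucleoside kinase-like subunit, was 11.21, 11.33, 11.18, 11.18 and 11.40 in NC. It was 11.47, 11.45, 11.59, 11.46 and 11.41 in CL, where every liver lay above every NC liver. The fold change was 0.22 (SE 0.07, limma adjusted p = 0.0249), but it was -0.09 with each array centred on its median and -0.18 in the mean of its probe sets. The other probe set was dim, with a mean log2 signal of 5.27, and differed by -0.57 (limma adjusted p = 0.089). Ndufc1, a small membrane subunit, was 11.19, 11.21, 11.26, 11.10 and 11.40 in NC and 11.32, 11.45, 11.40, 11.45 and 11.40 in CL, where the groups overlapped. It rose by 0.17 (SE 0.06, limma adjusted p = 0.0429), which turned to -0.13 with median centring. With that centring the bright genes had a median of -0.33. Neither rise was firm: of the 20 fits that each left out 1 array, Ndufa10 passed in 16 and Ndufc1 in 9, and neither passed without NC 1, NC 3, NC 4 or CL 3. Ndufa3 was the member of this part that fell, by 0.28 (limma adjusted p = 0.00224). The other 5 lay between -0.15 (Ndufa13) and 0.08 (Ndufa8), and none of them passed.

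**Figure D2:**
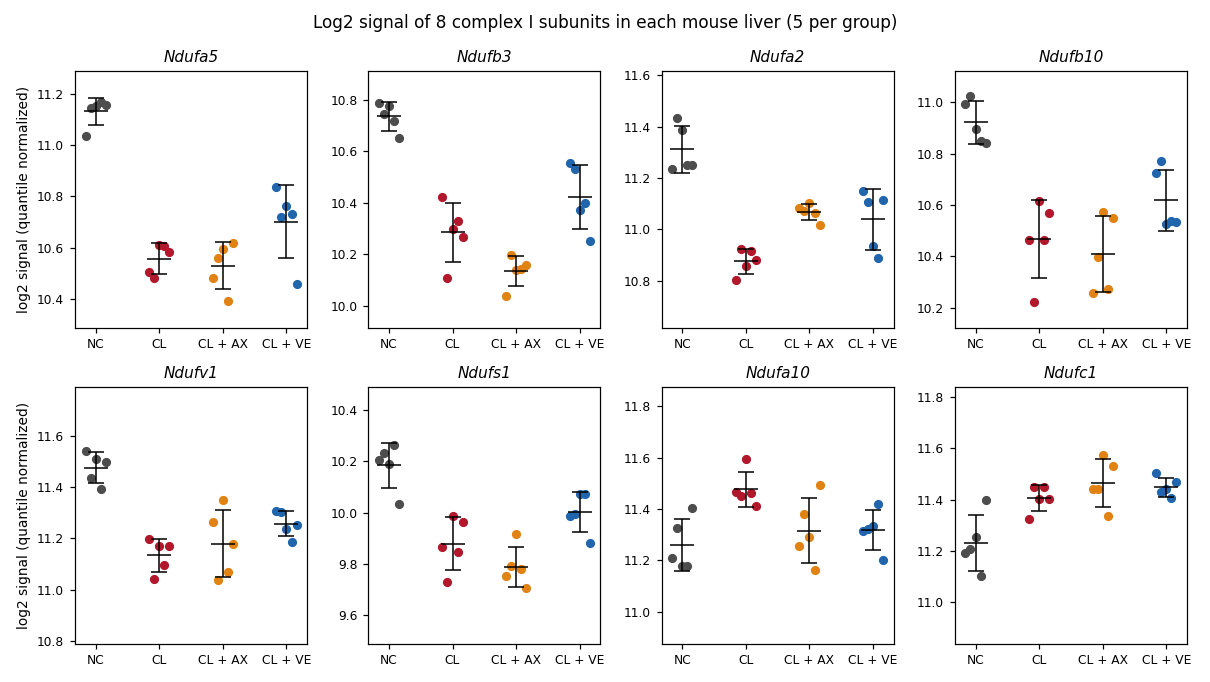
Log2 signal (vertical axis, quantile normalized, each panel spanning 1 log2 unit) of 8 subunits in each of 5 mice per group; points are mice and bars give the mean and SD. For Ndufa5, Ndufb3, Ndufa2, Ndufb10, Ndufv1 and Ndufs1 every CL point lies below every NC point. The CL points of Ndufa10 lie above the NC points, although its fold change is -0.09 with each array centred on its median.

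Genes with several probe sets gave a wider view. Over all 76 probe sets that name 1 of the 34 subunits alone, 28 were lower in CL, 2 were higher and 63 lay below 0, with a median of -0.19. Of all probe sets that name 1 gene 9.08% were lower and 10.8% were higher, and of those with a mean log2 signal of 10 or above 19.4% and 21.7%. The 42 probe sets that are not the brightest of their gene came from 20 subunits, and 14 of them were lower and none was higher. Among the 24 of these with a mean log2 signal of 10 or above 12 were lower, and 21 lay below 0. Probe sets of a gene differed in size, as in Ndufa5, Ndufs7, Ndufs8 and Ndufb9. Probe sets that also name a second gene add values for members not measured alone. The bright probe set shared by Ndufa11 and Ndufa11b differed by -0.52 (limma adjusted p = 8.17e-05), and the one shared by Ndufs6 and Ndufs6b by -0.22 (limma adjusted p = 0.0277). The 2 shared by Ndufb4, Ndufb4b and Ndufb4c differed by 0.08 and 0.15 and did not pass.

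**Figure D3:**
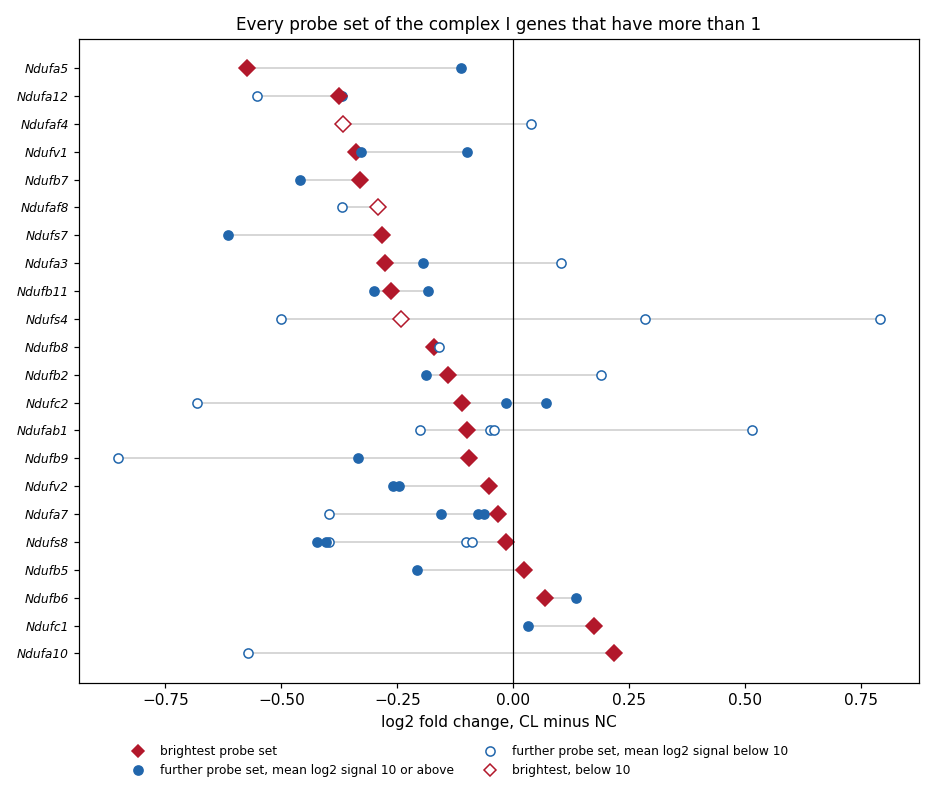
Log2 fold change between the CL and NC groups (horizontal axis) of every probe set that names 1 gene alone, for the complex I genes that have more than 1; diamonds mark the brightest probe set, filled symbols a mean log2 signal of 10 or above. The brightest probe set of Ndufs8 lies at -0.01 with others at -0.40 and -0.42, and that of Ndufa5 at -0.57 with the other at -0.11.

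Of the 8 assembly factors 1 fell and none rose, a share of 12.5% beside 11.3% of all genes, so this count is no result about the factors. The SEs ran from 0.07 to 0.16. The factor that passed was Ndufaf8, a partner of Ndufaf5. It was 9.88, 9.75, 9.87, 9.65 and 9.54 in NC and 9.56, 9.29, 9.45, 9.44 and 9.50 in CL, with an overlap of the 2 groups. The fold change was -0.29 (SE 0.07, limma adjusted p = 0.00793), and it was 0.04 in the signals as deposited. Ndufaf4, Ndufaf7, Ndufaf6 and Ndufaf3 differed by -0.37, -0.33, -0.30 and -0.22, with limma adjusted p between 0.0726 and 0.138. The other probe set of Ndufaf4 differed by 0.04 (limma adjusted p = 0.865). Ndufaf1, which works on an intermediate of the membrane arm, differed by -0.03, and Ndufaf2, the factor that Ndufa12 replaces, by -0.07. Ndufaf5, a modifying enzyme for Ndufs7, differed by 0.22 (SE 0.16). The median over the 8 factors was -0.26, but 0.19 in the signals as deposited, where the median gene was 0.39 higher. Ndufa4, which belongs to complex IV, differed by -0.05 (limma adjusted p = 0.562), and Ndufa4l2 was dim, with values from 1.68 to 4.56 in the NC and CL livers.

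Genes that supply or control complex I were read from lists chosen with earlier results of these data known, and their counts stand beside the 11.3% of all genes that were lower and the 12.0% that were higher. Of 11 assembly factors without the Nduf name 4 fell and 2 rose, among them Ecsit (-0.58, limma adjusted p = 0.00024), which works with Ndufaf1, and Tmem70 (0.36, limma adjusted p = 0.00103), a membrane arm factor. Of 14 genes that supply iron-sulfur clusters or flavins 7 fell and none rose. Flad1, which makes FAD, fell by 0.58 and Rfk, which makes FMN, fell by 0.38, both with limma adjusted p = 0.000188. Of 15 regulators of mitochondrial biogenesis 5 fell and 2 rose. Polrmt, the mitochondrial RNA polymerase, fell by 0.55 (limma adjusted p = 1.41e-05), and the nuclear receptor Esrra fell by 0.66 (limma adjusted p = 0.002). ND5, the one subunit of mitochondrial DNA with a probe set named here, was 13.08 ± 0.16 (SD, n = 5) in NC and 13.25 ± 0.21 in CL, a difference of 0.17 (limma adjusted p = 0.186).

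The other complexes were counted in the same way, beside 11.3% of all genes and 19.6% of the bright genes lower. Of 9 nuclear subunits of complex III 4 fell and none rose, with a median of -0.19. The lowest p values belonged to Uqcr11 (-0.34) and Cyc1 (-0.37), the cytochrome c1 haem protein. In complex IV 3 of 10 fell, with a median of -0.12, and Cox5b and Cox6b1 fell by 0.22 and 0.19. In complex V 4 of 16 fell, with a median of -0.08, and Atp5k and Atp5e fell by 0.33 and 0.17. None of the 4 subunits of complex II passed, with Sdhc at 0.08 and Sdhd at -0.15. The difference between complex I and the other complexes was not tested.

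**Figure D4:**
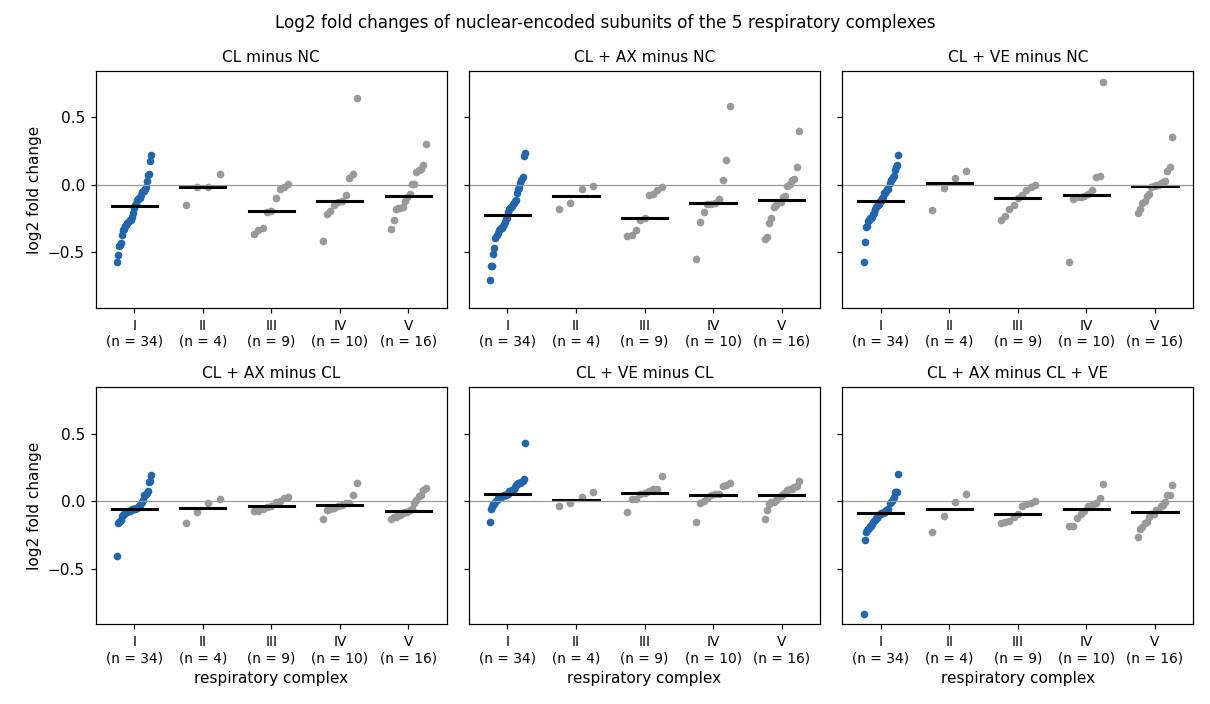
Log2 fold change (vertical axis) of each measured nuclear-encoded subunit of the 5 respiratory complexes (horizontal axis, with the number of genes) in the 6 comparisons of the groups; points are genes, sorted within a complex, and black bars are medians. The median of complex I lies at -0.16 for CL minus NC, at -0.22 for CL + AX minus NC and at -0.12 for CL + VE minus NC, and the comparisons against NC share the NC mice.

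Promoter windows from RefSeq (GRCm38.p6, 250 bases before to 50 bases after the annotated start) were matched for 31 of the 34 subunits. Those of Ndufa2, Ndufb9 and Ndufs1 were not matched. Windows were searched on both strands for 4 short motifs, of which only the first is its own reverse complement, and none of them was taken as a binding site. The NRF1 core TGCGCA was in 9 of the 31 (29.0%), and in 12.8% of the windows of 14452 genes on the array. The YY1 motif AAGATGGC was in 6 (19.4%, against 4.07%), and the ESRRA motif AAGGTCA in 3 (9.68%, against 4.61%). The GABPA motif CCGGAAG was in 4 (12.9%, below the 15% of all windows). Among the 12 matched subunits that fell, 3 held the NRF1 core, 3 the YY1 motif, none the ESRRA motif and 2 the GABPA motif. Among the 19 others the counts were 6, 3, 3 and 2. The median GC content was 59.3% in the subunit windows and 58.7% in all.

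The sites in subunits that fell are shown as 30 bases each, read 5′ to 3′ on the strand of the gene, with the motif in capitals. They show where these letters lie relative to the start in genes that were lower in CL. Ndufa5 (Entrez 68202) lies on the minus strand of chromosome 6, and its site at chr6:24527700-24527729 begins 27 bases before the nearer of its 2 listed starts. The NRF1 core of Ndufb10 (chr17:24724409-24724438, minus strand) begins 3 bases before the start and that of Ndufb8 (chr19:44555420-44555449, minus strand) at base 6 after it. The YY1 motifs of Ndufa3 (chr7:3617384-3617413, plus strand), Ndufb8 (chr19:44555393-44555422, minus strand) and Ndufs7 (chr10:80249462-80249491, plus strand) begin at bases 23, 39 and 25 after the start.
Ndufa5 NRF1 core: gcttgtgtgagcTGCGCAggcgcaaatcta
Ndufb10 NRF1 core: ctgtcacctttcTGCGCAggcgtagaggtc
Ndufb8 NRF1 core: gtgacccgctttTGCGCAtgtgcagagtga
Ndufa3 YY1 motif: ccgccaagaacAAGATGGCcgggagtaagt
Ndufb8 YY1 motif: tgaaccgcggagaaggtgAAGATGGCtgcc
Ndufs7 YY1 motif: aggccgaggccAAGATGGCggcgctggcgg

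For the gene with the largest fall and the 2 genes that rose, the 150 bases before the start are given to compare their base composition. Ndufa5 is at chr6:24527691-24527840, Ndufa10 (Entrez 67273) at chr1:92473759-92473908 and Ndufc1 (Entrez 66377) at chr3:51408956-51409105, all on the minus strand. The GC content was 52.7%, 64.0% and 64.7%, and the NRF1 core, in capitals, is in the first alone. The YY1 motif is in the window of Ndufc1 too, at base 23 after the start, outside the stretch shown.
Ndufa5 (fell in CL): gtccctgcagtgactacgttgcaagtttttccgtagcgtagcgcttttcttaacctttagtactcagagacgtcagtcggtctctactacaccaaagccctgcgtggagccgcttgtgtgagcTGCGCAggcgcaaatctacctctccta
Ndufa10 (rose in CL): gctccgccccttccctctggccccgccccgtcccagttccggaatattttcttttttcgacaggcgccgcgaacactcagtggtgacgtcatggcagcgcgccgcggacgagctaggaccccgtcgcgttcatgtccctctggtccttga
Ndufc1 (rose in CL): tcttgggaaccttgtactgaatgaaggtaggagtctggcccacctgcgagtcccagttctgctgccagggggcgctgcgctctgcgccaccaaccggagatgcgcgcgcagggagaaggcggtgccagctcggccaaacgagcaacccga

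Adding astaxanthin to the CL diet moved no subunit past the adjusted p. By limma 0 subunits were lower and 0 were higher in CL + AX than in CL, as were 0.0% of all genes in each direction. At an unadjusted p under 0.05, 3 subunits were lower (4.02% of all genes were) and 1 was higher (4.03% of all genes), and the methods' t-test gave 4 and 1. The median log2 fold change was -0.06, beside 0.01 over all genes. Ndufa2 was the subunit that was higher: the CL + AX livers read 11.08, 11.07, 11.10, 11.06 and 11.02, all above the 5 CL livers and below the 5 NC livers. The difference was 0.19 (SE 0.06, limma adjusted p = 0.465). Ndufab1, Ndufa10 and Ndufb3 were lower at an unadjusted p under 0.05, by 0.16, 0.16 and 0.15, with limma adjusted p from 0.6 to 0.651. Ndufv2 and Ndufs5 differed by -0.11 and -0.10, and Ndufb6, Ndufb9, Ndufc1 and Ndufa12 by 0.14, 0.07, 0.06 and 0.05. Of the 8 Ndufaf factors all had a fold change below 0, from -0.24 (Ndufaf4) to -0.01 (Ndufaf6), as had 8817 of 18193 genes, and none passed. In the signals as deposited 2 of the 8 factors and 8 of the 34 subunits lay below 0. The median of the subunits was then 0.04, beside 0.18 over all genes. The median signal of the arrays as deposited separated these groups (26.4 to 27.7 against 19.4 to 24.8), and its part was not tested. ND5 differed by -0.27 (limma adjusted p = 0.475).

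Adding vitamin E gave no call either. By limma 0 subunits were lower and 0 were higher in CL + VE than in CL, with 0.0% of all genes in each direction. At an unadjusted p under 0.05, 1 was lower (2.7% of all genes) and 4 were higher (4.85% of all genes), and the methods' t-test gave 1 and 3. The median was 0.05, beside 0.03 over all genes, and 6 of 34 subunits lay below 0, beside 7999 of 18193 genes. In the signals as deposited 33 of the 34 subunits lay below 0, with a median of -0.11, beside -0.20 over all genes. The Actb ratio separated these groups too (1.32 to 1.51 against 1.01 to 1.25), and its part was not tested. The 4 were Ndufa2, Ndufa5, Ndufa3 and Ndufa12, each of which fell on the CL diet, with differences of 0.16, 0.14, 0.13 and 0.13 and limma adjusted p from 0.492 to 0.645. Both comparisons use the same CL mice. The CL + VE livers of Ndufa5 read 10.83, 10.72, 10.76, 10.73 and 10.46, of which 4 were above all the CL livers and the fifth was below them. Ndufaf8 differed by 0.17 (limma adjusted p = 0.613). The lower one was Ndufa10, at -0.16 (SE 0.07, limma adjusted p = 0.582), with CL + VE livers at 11.31, 11.32, 11.34, 11.42 and 11.20. Ndufc2, Ndufaf5, Ndufb1 and Ndufs4, next in order of p, differed by -0.04, -0.06, -0.06 and -0.02.

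The 2 supplemented groups were also compared with each other. By limma 0 subunits were lower and 0 were higher in CL + AX than in CL + VE, with 0.0% of all genes in each direction at the adjusted p. At an unadjusted p under 0.05, 12 of the 34 subunits were lower in CL + AX, beside 6.59% of all genes, and 0 were higher, beside 3.66%. Of the 1401 bright genes 202 were lower and 95 were higher at the same p. The methods' t-test gave 12 and 0 subunits. In 4 subunits every CL + AX liver was below every CL + VE liver, beside 1.58% of all genes. The median was -0.09, beside -0.02 over all genes, and 28 of 34 lay below 0. These differences lay above 0 in all but 1 subunit in the signals as deposited, where the median gene was 0.38 higher in CL + AX. After median centring of the arrays 23 subunits passed the adjusted p as lower, beside 6.11% of all genes and 37.9% of the bright genes, and after trimmed-mean scaling none did. The Actb ratio (1.07 to 1.23 against 1.32 to 1.51) and the median signal of the arrays as deposited (26.4 to 27.7 against 17.0 to 20.7) also separated CL + AX from CL + VE, and their part in the result was not tested.

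Ndufb3 had the smallest p of this comparison. Its log2 signal was 10.04, 10.20, 10.14, 10.14 and 10.16 in CL + AX. It was 10.55, 10.53, 10.37, 10.40 and 10.25 in CL + VE, above all of the CL + AX livers. The difference was -0.29 (SE 0.07, limma adjusted p = 0.158). Ndufs5 was 10.76 to 10.86 in CL + AX and 10.92 to 11.05 in CL + VE, a difference of -0.19 (SE 0.05, limma adjusted p = 0.236). Ndufs1 differed by -0.21, Ndufab1 by -0.20 and Ndufa3 by -0.19, with limma adjusted p from 0.274 to 0.307. In the other direction the smallest p values were those of Ndufb1 (0.20), Ndufb9 (0.06) and Ndufb6 (0.07), none of them under 0.3 before adjustment. A p that misses the threshold does not show that the supplements act alike, and the SE of a fold change ran from 0.05 to 0.14 over the 30 bright subunits.

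Against chow, both supplemented groups showed many of the falls seen in the CL group. In CL + AX 17 subunits were lower and 1 was higher than in NC (limma, adjusted p under 0.05), with a median of -0.22. The shares were 11.3% and 12.0% of all genes, and 22.3% and 22.2% of the bright genes. In CL + VE 8 subunits were lower and 1 was higher, with a median of -0.12. There the shares were 7.27% and 10.2% of all genes, and 13.9% and 16.8% of the bright genes. These comparisons and that of CL use the same 5 NC mice, and the difference between the counts was not tested. Ndufa5 was -0.57, -0.60 and -0.43 against NC in CL, CL + AX and CL + VE. Ndufb3 was -0.45, -0.60 and -0.31, Ndufb10 -0.45, -0.51 and -0.30, and Ndufs7 -0.28, -0.36 and -0.21, all past the adjusted p. Ndufv1, at -0.34, -0.30 and -0.22, passed in all of them too. Ndufs1 was -0.31, -0.39 and -0.18 and did not pass in CL + VE (limma adjusted p = 0.0677). Ndufs3 was -0.21, -0.31 and -0.16 and did not pass in CL + VE either (limma adjusted p = 0.102). Ndufc1 was 0.17, 0.23 and 0.22 and passed as higher in each, although median centring put it at -0.27 in CL + AX. Ndufa10 was 0.22, 0.06 and 0.06, and only the first passed.

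Some members that did not pass between CL and NC passed between CL + AX and NC. Ndufab1 fell by 0.26 (limma adjusted p = 0.00557), with CL + AX livers from 10.54 to 10.67 and all NC livers above them, at 10.77 or higher. Ndufb2 and Ndufa13 fell by 0.18 and 0.20 (limma adjusted p = 0.0411 and 0.05 to 2 decimals). Of the 20 fits that left out 1 array, Ndufab1 passed in all, Ndufb2 in 13 and Ndufa13 in only 5. In the signals as deposited, where the median gene was 0.60 higher in CL + AX than in NC, these 3 lay at 0.09, 0.13 and 0.000704. Among the assembly factors Ndufaf4 fell by 0.61 (limma adjusted p = 0.00316), Ndufaf7 by 0.52, Ndufaf3 by 0.32 and Ndufaf8, which had passed in CL too, by 0.33, of which the last 3 lay above 0 in the signals as deposited, and none of the 8 passed in CL + VE. Ndufaf4 needs care, since its NC livers read 9.41, 9.55, 9.64, 9.45 and 8.77 and its other probe set differed by -0.09 between CL + AX and NC (limma adjusted p = 0.66). Ndufaf3 passed in 14 of the 20 fits that left out 1 array. No difference from CL was called for any of these genes.

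Each mouse can be placed by the median, over the 34 subunits, of its deviation from the NC mean. The NC livers lay between -0.03 and 0.04, the CL livers between -0.27 and -0.09, the CL + AX livers between -0.27 and -0.16 and the CL + VE livers between -0.19 and -0.07. By this measure no liver on a CL diet reached the range of the NC livers, whereas by the median level of the subunits, after quantile normalization, 1 CL, 1 CL + AX and 2 CL + VE livers did. The NC mean comes from the same NC livers, which places them nearer 0 by construction. The separation by the first measure is therefore in part built in. The CL livers were at -0.09, -0.27, -0.12, -0.20 and -0.21, a spread within the group that was wider than the gap from its highest liver to the lowest NC liver. The subunits moved together only loosely from mouse to mouse. The median Pearson correlation between pairs of the 30 bright subunits, over deviations of the 20 livers from their group means, was 0.23 across 435 pairs, beside 0.01 across pairs of the 1401 genes of that brightness. The lower and upper quartiles were 0.02 and 0.39 for the subunits, and -0.24 and 0.26 for the 1401 genes. All pairs share the same arrays, so no p is given.

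**Figure D5:**
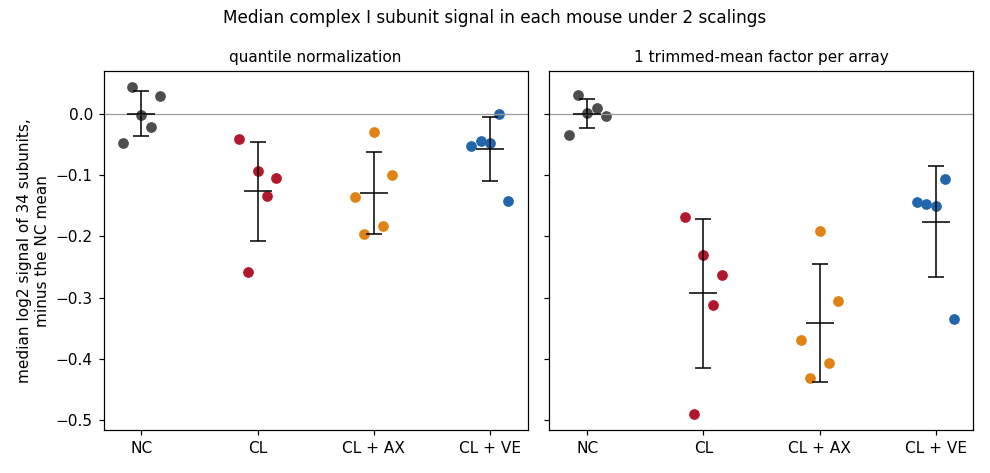
Median log2 signal of the 34 subunits in each mouse minus the mean of the NC mice (vertical axis), under quantile normalization and with 1 trimmed-mean factor per array; points are mice and bars give mean and SD of 5. The NC points lie between -0.05 and 0.04 on the left and between -0.04 and 0.03 on the right, and the CL points between -0.26 and -0.04 on the left and between -0.49 and -0.17 on the right.

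The scaling between arrays set the number of calls. With 1 trimmed-mean factor per array, the usual MAS5 scaling, 25 subunits were lower in CL than in NC and 0 were higher, while 10.2% of all genes and 41.5% of the bright genes were lower too. With median centring 27 were lower, beside 15.2% of all genes and 53.6% of the bright genes, and in the signals as deposited 0 were lower and 1 was higher, beside 3.43% and 26.6% of the bright genes. All 14 subunits called after quantile normalization kept a fold change below 0 with median centring and trimmed-mean scaling, and 13 of 14 did in the signals as deposited. The 3 scalings other than the quantile normalization differ by 1 constant per array, so the median of the subunits relative to that of the bright genes is the same in them by construction. With quantile normalization and with the others it was -0.16 and -0.16 for CL minus NC, -0.21 and -0.19 for CL + AX minus NC, and -0.13 and -0.16 for CL + VE minus NC.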

How the data were processed

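Liver RNA of 20 mice was hybridized to Affymetrix mouse genome expression arrays, 1 array per mouse. The deposited values are MAS5 signal intensity on a linear scale, which the authors computed from the scanned probes with the Affymetrix software, unscaled between arrays. The 64 control probe sets were left out. The log2 signals of 45037 probe sets were quantile normalized and fitted with limma 3.58.1 in R 4.3.3, with all 4 groups in 1 model (16 residual degrees of freedom) and a trend in the variance prior. The Benjamini-Hochberg adjustment ran over all these probe sets. Tables and figures were made with Python 3.11.15, pandas 2.3.3 and numpy 2.4.6. The fit was tested on simulated data.

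The array annotation gave 34945 probe sets 1 gene, 932 several genes and 9160 none. For each of 18193 genes the probe set with the highest mean signal was used. Array signals have no counts behind them, so the number of arrays limits the precision. Nothing in the labels says that mice of the same number in different groups belong together, and the arrays did not pair: over 30 pairs of the same number the correlation of deviations from the group means was -0.03 to 0.04.

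Members and gene lists were chosen with earlier results of these data known. The text names the core subunits, all Ndufaf factors, the 5 members with the smallest p in each direction of each of the 6 comparisons, Ndufa4 and Ndufa4l2, and the 2 genes of each other list with the smallest p between CL and NC. Other members named, and the further and shared probe sets, were chosen after their values were seen. The alternatives were 3 other scalings (signals as deposited, centring on the median, the trimmed mean of the middle 96% of signals), a floor of 16, a filter on dim probe sets, no trend, only the 2 groups compared, the methods' t-test (unequal variances), a replicate block, the mean of a gene's probe sets, leaving out each array, and, chosen after seeing the data, leaving out probe sets whose names end in _s_at or _x_at. Promoter windows are those of RefSeq for GRCm38.p6.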

Additional observations from a re-analysis of the deposited data

Results flagged for a closer look

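Single mice stood away from the other 4 of their group in 6 of 176 groups of values tested over the 44 genes, by Dixon's test at the 95% level, which chance alone flags in about 1 of 20 groups. Ndufa5 was 11.04 in NC 1, with the other NC livers at 11.14 to 11.17, and that liver was still above all CL livers. Ndufa6 was 11.55 in CL 3, with the others at 11.43 to 11.46. Ndufa12 was 11.50 in CL + VE 4, with the others at 11.66 to 11.71. Among the factors, Ndufaf4 was 8.77 in NC 5, below the other NC livers at 9.41 to 9.64, and Ndufaf3 was 7.78 in CL + VE 5, with the others at 8.17 to 8.20. Ndufa4l2, a dim probe set, was 1.76 in CL + AX 2, with the others at 3.18 to 3.70.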

How the results depend on the processing

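The scaling between arrays changed the counts most. Of the 34 subunits, 0 were lower in CL than in NC in the signals as deposited, 27 when arrays were centred on their median and 25 after trimmed-mean scaling; for CL + AX minus NC these were 0, 31 and 27, and for CL + VE minus NC 0, 21 and 20. For CL + AX minus CL + VE median centring gave 23. The median of the subunits relative to all genes is the same under these 3 scalings by construction: -0.38 for CL minus NC, -0.14 for CL + AX minus CL, 0.088 for CL + VE minus CL, -0.23 for CL + AX minus CL + VE, -0.53 for CL + AX minus NC and -0.33 for CL + VE minus NC. Counts of higher subunits were 1, 3 and 0 as deposited for CL, CL + AX and CL + VE against NC. They were 0 in all 3 with median-centred arrays, trimmed-mean scaling, the methods' t-test and the mean of probe sets, 0 in CL and CL + VE with no trend or only the 2 groups fitted, and 2 in CL + AX with the filter on dim probe sets. For CL + VE minus NC, no trend gave 3 lower subunits and the methods' t-test 4. The cause of these changes was not tested.

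Leaving out 1 array in turn gave 12 to 14 lower and 0 to 2 higher subunits for CL minus NC, 14 to 18 and 1 to 2 for CL + AX minus NC, and 7 to 10 and 0 to 1 for CL + VE minus NC. The single array that ended the call of Ndufc1 in CL + VE was NC 4, and without NC 2 there were 2 higher subunits in CL + AX. The other 3 comparisons stayed at 0. With a replicate block, which the arrays do not call for, 15 subunits were lower and 2 higher for CL minus NC, 17 and 1 for CL + AX minus NC, 9 and 1 for CL + VE minus NC, and 0 in the comparisons among the CL diets, and 8 of 20 arrays correlated best with their own number.

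Directions turned as follows. For CL minus NC, Ndufa10 was -0.095 with median centring and -0.18 in the mean of probe sets, Ndufb5 -0.31 and Ndufc1 -0.13 with median centring, and Ndufaf8 0.036 and Ndufs1 0.014 as deposited. For CL + AX minus NC as deposited, Ndufa13 was 0.000704, Ndufa2 0.044, Ndufab1 0.088, Ndufb2 0.13, Ndufb8 0.061, Ndufs1 0.029, Ndufaf1 0.39, Ndufaf2 0.44, Ndufaf3 0.26, Ndufaf7 0.16 and Ndufaf8 0.12. With median centring Ndufa10 was -0.45, Ndufa8 -0.46, Ndufc1 -0.27 and Ndufs8 -0.49, and in the mean of probe sets Ndufa10 was -0.36, Ndufb2 0.041 and Ndufs8 -0.31. For CL + VE minus NC, Ndufa4 was -0.28 after median centring and -0.20 after trimmed-mean scaling. Dim probe sets limit their genes: the SE of a fold change was 0.42 for Ndufb4, 0.53 for Ndufa4l2 and 0.20 for Ndufb1.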
